A study of Mus musculus with 16 samples.

Results

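Immediate early genes are the genes that neurons switch on first after synaptic activity, without needing new protein synthesis. The 33 genes described here are a list of activity-induced transcription factors and effectors, taken from the files by gene symbol. All 33 were present among the 39179 gene rows of every library, and all 33 passed the filter on low counts that left 18074 genes for testing. RNA was sequenced from hippocampal and cortical neurons of adult mice of the B6.129S6.SvEvTac strain, which the labels call TERT-AD. The groups were hippocampal neurons after tamoxifen, hippocampal neurons of the group labelled control, cortical neurons after tamoxifen and cortical control neurons, with 4 libraries each. Mice received either tamoxifen or vehicle, and the series describes the tamoxifen groups as neurons with Tert, the catalytic subunit of telomerase, activated in living animals. Which promoter or cell type drives that activation, the dose and timing of tamoxifen, the animals' ages and the way neurons were isolated could not be read from the labels.

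Calcium entering through glutamate receptors and voltage-gated channels activates kinases that phosphorylate CREB and the serum response factor complex, and these already bound factors start transcription of immediate early genes within minutes. One arm of the response encodes transcription factors (the FOS and JUN proteins that pair as AP-1, the EGR zinc fingers, the NR4A orphan receptors and Npas4), another encodes proteins that damp the signal again (phosphatases, RNA-binding and growth-arrest proteins), and a further arm acts at the synapse (Arc, Nptx2, Vgf, Inhba). Many AP-1 and brake genes also respond to growth factors, cytokines and the mechanical and enzymatic stress of tissue dissociation in glia as well as neurons. Npas4, Arc and Nptx2 are more closely tied to neurons.

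Neighbouring libraries of a group differed little, so libraries 1 and 2 were summed as sample A and libraries 3 and 4 as sample B, giving 8 samples with 83527470 to 108293362 gene counts, 2 per group. Levels are given as CPM, the usual library-scaled count, here on the gene-row total, always sample A before sample B, and fold changes are log2 values after TMM scaling, which aligns the bulk of genes between samples. Cortical TMM factors were 0.8261 to 1.139 and hippocampal ones 1.061 to 1.142, and without them the median gene shifts by 0.39 (log2) between the control regions and by 0.25 between the cortical groups. The labels do not say that libraries came from separate animals, and the p-values therefore reflect no more than the spread among these samples, which may be technical. Transcripts of other cells were abundant in all 8 samples: summed CPM ranged from 1780 to 3910 over 5 general neuron markers, from 24000 to 72600 over 6 oligodendrocyte markers and from 701 to 2330 over 7 microglia markers. No marker of these lists was at 0 in any sample. Sample B of the cortical tamoxifen group stood apart, with 20.1 to 20.69% mitochondrial counts in its libraries against 29.68 to 32.08% in the other cortical libraries. Tert itself was low, at 1.04 and 2.16 CPM in hippocampal tamoxifen samples and 1.47 and 3.89 CPM in hippocampal controls, with 1.04 and 2.34 CPM in cortical tamoxifen samples and 0.473 and 1.11 CPM in cortical controls, and the groups overlapped in each region (log2 fold change -0.72, SE 0.65, edgeR adjusted p = 1 in hippocampus; 0.83, SE 0.67, edgeR adjusted p = 0.834 in cortex).

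Per length, the AP-1 genes Junb and Jun led, with median RPKM (counts scaled to exon length and library size) over the 16 libraries of 68.9 and 58.7, followed by Fos at 55.3, Zfp36 at 48.7 and Egr1 at 32.7 RPKM. At the low end stood Egr2 at 0.639, Inhba at 0.404 and Npas4 at 0.0607 RPKM. The most abundant members thus belonged to the broadly inducible AP-1, EGR and brake genes, while the neuron-restricted factor Npas4 was the least abundant of the 33. The order differed between regions: Arc averaged 14.0 and 10.1 RPKM in hippocampal tamoxifen and control libraries and 27.3 and 10.5 RPKM in cortical ones, whereas Fos averaged 83.1 and 97.2 RPKM in hippocampal and 23.7 and 31.7 RPKM in cortical libraries. These averages describe 4 libraries per group.

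The largest differences among the members lay between the brain regions, a comparison the groups allow in tamoxifen and in control samples separately. Most AP-1 and brake genes, with Egr1 and Egr2, were higher in hippocampal samples, while the synaptic effectors, Egr3, Egr4 and Npas4 were lower. Averaged over tamoxifen and control samples, 16 of 33 members passed the edgeR test as higher in hippocampus, where 8.42% of all tested genes did, and 7 passed as lower, where 9.94% of all genes did (adjusted p under 0.05). The median log2 fold change was 0.66 over the members and 0 over all genes. This average was added after the values were seen and treats the regions as independent, although they may come from the same animals. All 33 members kept their sign under the 17 other settings tried. With no scaling factor, 23 passed as higher (17.2% of all genes) and 5 as lower (3.01% of all genes). With 1 sample left out 2 to 27 members passed, the fewest without cortical control B (1.95% of all genes) and the most without cortical tamoxifen A (32.5% of all genes).

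The comparisons within each treatment gave fewer calls. Between tamoxifen samples 1 member was higher (0.426% of all genes) and 0 were lower (0.692% of all genes), with 24 members at an unadjusted p under 0.05. Between control samples 3 were higher (2.71% of all genes) and 1 was lower (3.48% of all genes), with 20 at an unadjusted p under 0.05. With 1 sample left out, 0 to 23 members passed between tamoxifen samples, 23 only without cortical tamoxifen A (21.7% of all genes), and 0 to 21 between controls, 21 without either cortical tamoxifen sample (20.7% of all genes in each case). These comparisons share no sample, and all 33 members had the same sign in both, as did 73.5% of all tested genes. In these bulk samples, fewer cells of a type and less RNA per cell cannot be told apart.

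**Figure D1:**
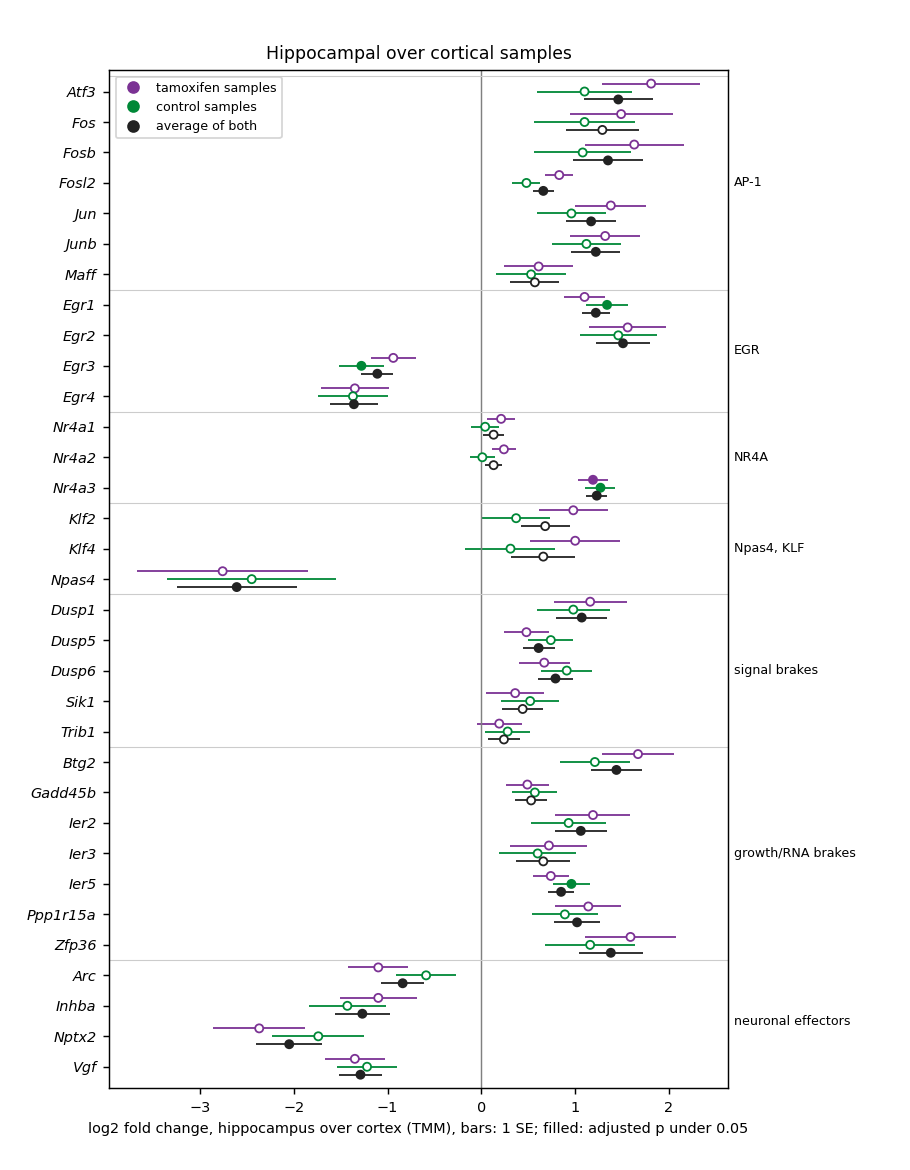
Log2 fold change (x axis, TMM scale) of each of the 33 members (y axis, grouped by role) in hippocampal over cortical samples, for tamoxifen samples, control samples and their average, with bars of 1 SE; filled points passed the edgeR test at an adjusted p under 0.05. Of the averaged values 26 lie right of 0 and 7 left of it.

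On the scale of the fold changes, 18 members had all 4 hippocampal samples above all 4 cortical samples, against 11.8% of all genes, and 6 had all 4 below, against 15.2% of all genes. On the gene-row total these were 22 members, against 21.9% of all genes, and 3 members, against 4.44%. Summed over all 33 members, hippocampal tamoxifen samples held 3050 and 2770 CPM and hippocampal controls 2770 and 3940 CPM, against 1360 and 1240 CPM in cortical tamoxifen samples and 1440 and 1390 CPM in cortical controls. The 7 members called lower in hippocampus summed to 152 and 101 CPM in hippocampal tamoxifen samples and 92.6 and 97.6 CPM in hippocampal controls, and to 169 and 378 CPM in cortical tamoxifen samples and 134 and 153 CPM in cortical controls.

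The NR4A receptors, ligand-independent transcription factors that couple activity to metabolism and long-term memory, divided by member. Nr4a3 (NOR-1, mm10 chr4:48045153-48086447, plus strand) stood at 29.4 and 27.4 CPM in hippocampal tamoxifen samples and 30.7 and 26.9 CPM in hippocampal controls, against 8.05 and 14.9 CPM in cortical tamoxifen samples and 8.83 and 9.48 CPM in cortical controls. Every hippocampal sample lay above every cortical sample, and Nr4a3 was the member with the smallest p in each region comparison, with log2 fold changes of 1.19 between tamoxifen samples (SE 0.16, edgeR adjusted p = 0.0368) and 1.27 between controls (SE 0.16, edgeR adjusted p = 0.0207). Averaged, the value was 1.23 (SE 0.11, edgeR adjusted p = 0.00337), and it passed under all 17 other settings. Of these settings, Nr4a3 passed in 9 between tamoxifen samples and in 12 between controls, and with the replicate block in neither. Nr4a1 (Nur77) showed 40.5 and 47.8 CPM in hippocampal tamoxifen samples and 33.9 and 36.7 CPM in hippocampal controls, against 29.5 and 39.3 CPM in cortical tamoxifen samples and 25 and 27.5 CPM in cortical controls. Nr4a2 (Nurr1) showed 41.1 and 35.2 CPM in hippocampal tamoxifen samples and 27.9 and 26.5 CPM in hippocampal controls, against 23.8 and 34.9 CPM in cortical tamoxifen samples and 19.1 and 22.0 CPM in cortical controls. For both of these the regions overlapped, and the averaged log2 fold change was 0.13 for Nr4a1 (SE 0.11) and 0.13 for Nr4a2 (SE 0.09).

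CREB binds the palindrome TGACGTCA, the cyclic AMP response element (CRE), and its shorter core TGACG, and the serum response factor binds the CArG box. RefSeq promoter windows of 300 bases (250 before to 50 after the start, build GRCm38.p6) were available for 25 of the 33 members, and were searched on both strands. These members had 31 windows, since Egr2 has 5 and Maff has 3, and a gene counts once if any window matches. The core stood in 17 of the 25 members (68.0%, against 23.05% of 27025 genes), the full CRE in 4 (16%, against 2.03% of genes) and a CArG box in 3 (12%, against 1.81% of genes). Counted by window, the core stood in 20, the full CRE in 4 and a CArG box in 6 of the 31, against 20.81%, 1.79% and 1.63% of 32851 windows. Egr2 held 4 of the 6 windows with a CArG box. Some Egr2 windows overlap, so that a site there can be counted more than once. Each full CRE contains the core. The AP-1 motifs TGACTCA and TGAGTCA stood in 0 of the 25 members (5.95% of genes), the EGR motif GCGTGGGCG in 1, Maff (0.71% of genes), and TATAAA in 6 (24.0%, against 15.67% of genes). A match says only that the letters are present. The Nr4a3 window, chr4:48045055-48045354 on the plus strand, is shown because this gene had the smallest p between regions, and it held 4 cores, in capitals, which begin at -231, -213, -205 and -147 from the start site (the match at -213 is on the other strand).
Nr4a3: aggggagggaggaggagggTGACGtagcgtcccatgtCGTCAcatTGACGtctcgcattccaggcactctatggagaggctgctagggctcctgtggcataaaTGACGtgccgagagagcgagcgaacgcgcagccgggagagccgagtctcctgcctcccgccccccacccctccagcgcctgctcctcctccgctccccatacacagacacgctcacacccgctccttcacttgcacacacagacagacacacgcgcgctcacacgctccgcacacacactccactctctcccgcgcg

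Among the EGR zinc fingers, which bind GC-rich promoters of synaptic genes, members diverged in direction. Egr1 (Zif268), the EGR most used as a mark of recently active neurons, stood at 335 and 342 CPM in hippocampal tamoxifen samples and 391 and 526 CPM in hippocampal controls, against 136 and 143 CPM in cortical tamoxifen samples and 155 and 124 CPM in cortical controls. Hippocampal samples were thus all higher, and the log2 fold change was 1.34 between controls (SE 0.22, edgeR adjusted p = 0.0308), 1.10 between tamoxifen samples (SE 0.22, edgeR adjusted p = 0.06) and 1.22 averaged (SE 0.15, edgeR adjusted p = 0.00649). Egr2 (Krox20), which also drives myelination in Schwann cells, showed 6.07 and 4.79 CPM in hippocampal tamoxifen samples and 5.58 and 7.25 CPM in hippocampal controls, against 1.80 and 1.38 CPM in cortical tamoxifen samples and 2.42 and 1.17 CPM in cortical controls. Its averaged log2 fold change was 1.51 (SE 0.29, edgeR adjusted p = 0.0167), the largest positive value of the 33.

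Egr2 is one of the 3 members with a CArG box, the letters in capitals. A match was found in 4 of its 5 windows, some of which overlap. In the window shown it starts at -72 (chr10:67537469-67537528, plus strand). The stretch is shown because Egr2 is among the members of smallest p with a CRE or CArG box.
Egr2: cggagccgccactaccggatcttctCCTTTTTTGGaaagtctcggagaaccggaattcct

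Egr3 (chr14:70077445-70080157, plus strand), a close relative of Egr1 that is needed for muscle spindles, ran the other way. It stood at 17.6 and 12.8 CPM in hippocampal tamoxifen samples and 13.3 and 14.8 CPM in hippocampal controls, against 17.2 and 37.0 CPM in cortical tamoxifen samples and 27.8 and 24.8 CPM in cortical controls. The tamoxifen samples overlapped in CPM, where sample A of hippocampus exceeded sample A of cortex, while the controls did not overlap. The log2 fold change was -1.28 between controls (SE 0.24, edgeR adjusted p = 0.0356), -0.94 between tamoxifen samples (SE 0.24, edgeR adjusted p = 0.0899) and -1.11 averaged (SE 0.17, edgeR adjusted p = 0.00876). Egr4 showed 5.91 and 4.04 CPM in hippocampal tamoxifen samples and 3.90 and 3.48 CPM in hippocampal controls, against 5.85 and 18.3 CPM in cortical tamoxifen samples and 7.54 and 7.11 CPM in cortical controls. Sample A of hippocampal tamoxifen again slightly exceeded its cortical counterpart in CPM, and the averaged value was -1.36 (SE 0.26, edgeR adjusted p = 0.0164). After TMM scaling the regions did not overlap for Egr3 or Egr4.

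**Figure D2:**
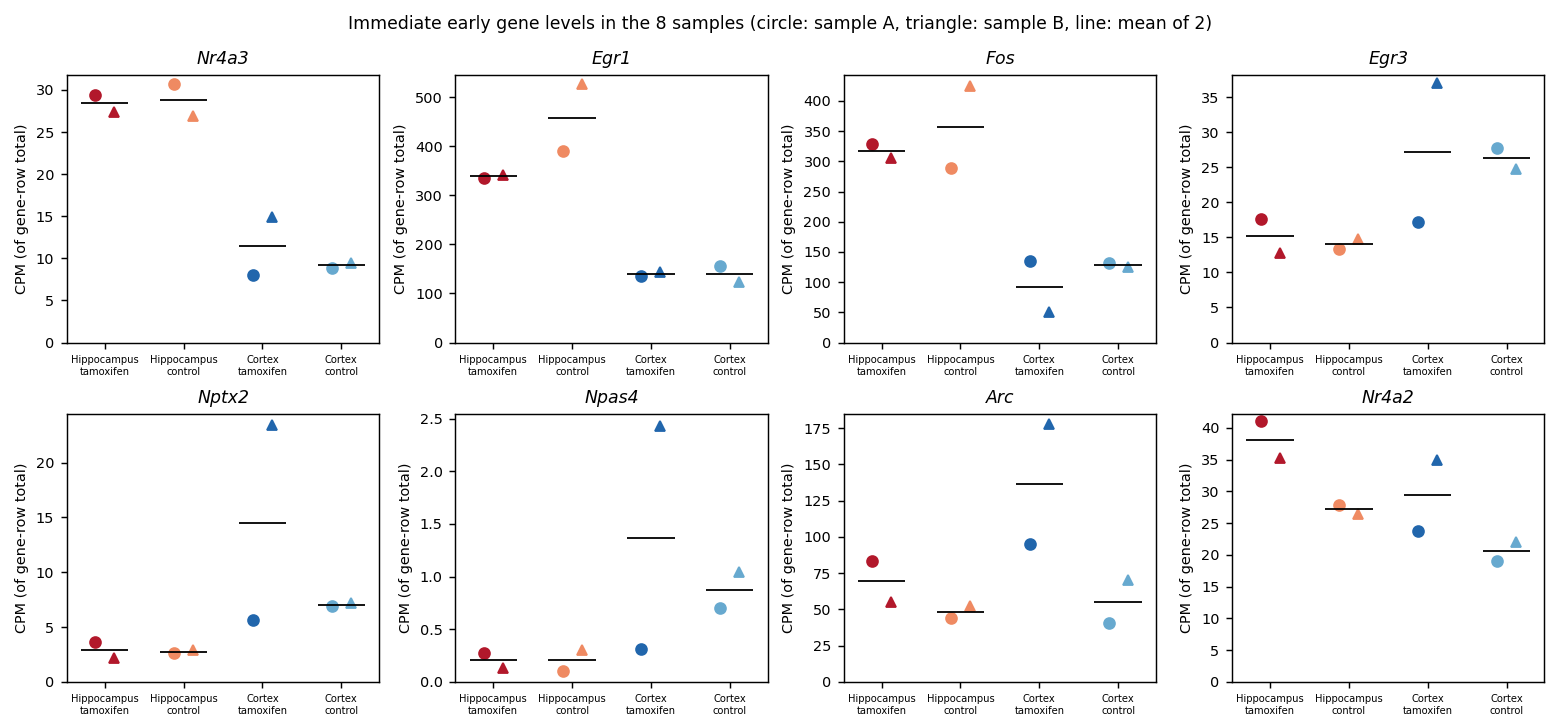
Levels of 8 members in CPM of the gene-row total (y axis, from 0) in the 4 groups (x axis), with a circle for sample A, a triangle for sample B and a line at the mean of both. Nr4a3, Egr1 and Fos lie higher in the 4 hippocampal samples than in the 4 cortical ones, Nptx2 and Npas4 lie lower, and sample B of the cortical tamoxifen group has the highest Egr3, Nptx2, Npas4 and Arc levels.

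All 7 AP-1 members had positive averaged values, from 0.57 to 1.46, and 5 passed as higher (8.42% of all genes). Fosl2 (FRA-2), a FOS relative, had the smallest p among them: 31.9 and 29.6 CPM in hippocampal tamoxifen samples and 23.4 and 27.3 CPM in hippocampal controls, against 14.3 and 16.4 CPM in cortical tamoxifen samples and 14.1 and 13.7 CPM in cortical controls, averaging a difference of 0.66 log2 (SE 0.11, edgeR adjusted p = 0.0103). The regions did not overlap. Junb, which forms the less activating JUN partner, stood at 320 and 286 CPM in hippocampal tamoxifen samples and 303 and 427 CPM in hippocampal controls, against 129 and 77.2 CPM in cortical tamoxifen samples and 134 and 125 CPM in cortical controls (averaged 1.22, SE 0.26, edgeR adjusted p = 0.0242). Jun, its activating relative, stood at 484 and 411 CPM in hippocampal tamoxifen samples and 416 and 589 CPM in hippocampal controls, against 181 and 110 CPM in cortical tamoxifen samples and 211 and 186 CPM in cortical controls (averaged 1.17, SE 0.27, edgeR adjusted p = 0.0273). Jun overlaps the opposite-strand gene BC042782, whose reads equalled 0.168% of those of Jun. Whether counting used strand was not stated, so reads of such a pair cannot be told apart.

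Atf3, an AP-1 partner induced by injury and stress, showed 78.6 and 78.6 CPM in hippocampal tamoxifen samples and 68.6 and 115 CPM in hippocampal controls, against 26 and 11.2 CPM in cortical tamoxifen samples and 33.1 and 32.9 CPM in cortical controls. Its averaged log2 fold change was 1.46 (SE 0.37, edgeR adjusted p = 0.0381), the largest positive AP-1 value. Fosb, whose truncated form accumulates with repeated activity, showed 147 and 121 CPM in hippocampal tamoxifen samples and 94.5 and 180 CPM in hippocampal controls, against 49.1 and 22.7 CPM in cortical tamoxifen samples and 52.3 and 48.2 CPM in cortical controls (averaged 1.35, SE 0.37, edgeR adjusted p = 0.0483). Fos, the classical marker of active neurons, did not pass. It stood at 328 and 305 CPM in hippocampal tamoxifen samples and 289 and 425 CPM in hippocampal controls, against 135 and 50.4 CPM in cortical tamoxifen samples and 132 and 125 CPM in cortical controls, so that the regions did not overlap, but the averaged value of 1.29 had an SE of 0.39 (edgeR adjusted p = 0.0615). On the log2 scale, Fos differed more between the cortical tamoxifen samples (sample B over A -1.87) than between the controls of either region (0.63 in hippocampus, -0.04 in cortex). Maff, a small MAF partner without an activation domain, was at 2.21 to 6.29 CPM over the 8 samples (averaged 0.57, SE 0.26, edgeR adjusted p = 0.171).

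Of the remaining transcription factors, Npas4, which neurons induce almost only through calcium and which recruits inhibitory synapses, was lower in hippocampus. It stood at 0.276 and 0.129 CPM in hippocampal tamoxifen samples and 0.105 and 0.305 CPM in hippocampal controls, against 0.311 and 2.43 CPM in cortical tamoxifen samples and 0.699 and 1.04 CPM in cortical controls. Hippocampal samples lay below all cortical ones by a small margin at sample A of cortical tamoxifen. That margin rested on few reads, 26 in this sample against 33 in hippocampal control B. The averaged log2 fold change was -2.61 (SE 0.64, edgeR adjusted p = 0.034). Neither comparison within a treatment passed (edgeR adjusted p = 0.138 between controls and 0.149 between tamoxifen samples). Klf2 and Klf4, zinc-finger factors best known from endothelium and from pluripotency, were positive without passing, at 0.68 (SE 0.26) and 0.66 (SE 0.34). Their levels ranged from 92.9 to 144 CPM and from 57.0 to 82.6 CPM in hippocampal samples, against 33.8 to 74.4 CPM and 18.1 to 43.8 CPM in cortical samples.

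The signal brakes were also positive, and 3 of 5 passed as higher in hippocampus averaged (8.42% of all genes). Dusp6, a phosphatase specific for ERK kinases, stood at 44.9 and 35.7 CPM in hippocampal tamoxifen samples and 39.4 and 64.3 CPM in hippocampal controls, against 17.3 and 29.1 CPM in cortical tamoxifen samples and 19.1 and 23.3 CPM in cortical controls (averaged 0.79, SE 0.19, edgeR adjusted p = 0.0317). Dusp1, a nuclear phosphatase of stress kinases and ERK, stood at 107 and 112 CPM in hippocampal tamoxifen samples and 125 and 173 CPM in hippocampal controls, against 52.6 and 30.2 CPM in cortical tamoxifen samples and 55.6 and 60.6 CPM in cortical controls (averaged 1.07, SE 0.27, edgeR adjusted p = 0.0388). Both had every hippocampal sample above every cortical one. Dusp5, a nuclear ERK phosphatase, stood at 5.13 and 5.49 CPM in hippocampal tamoxifen samples and 4.59 and 5.07 CPM in hippocampal controls, against 2.37 and 4.69 CPM in cortical tamoxifen samples and 1.99 and 2.43 CPM in cortical controls (averaged 0.61, SE 0.17, edgeR adjusted p = 0.0463). Here sample B of the cortical tamoxifen group reached the hippocampal range. Sik1, a kinase that restrains CREB coactivators, was at 8.89 to 20.3 CPM over the 8 samples (averaged 0.44, SE 0.22), and Trib1, a pseudokinase adaptor, at 7.83 to 17.0 CPM (averaged 0.24, SE 0.17); neither passed. The stretches below show the CRE of Dusp1, starting at -143 (chr17:26508583-26508640, minus strand), and the adjoining pair of CArG boxes of Dusp5, starting at -82 and -72 (chr19:53529038-53529107, plus strand).
Dusp1: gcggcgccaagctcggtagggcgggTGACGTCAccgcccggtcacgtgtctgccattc
Dusp5: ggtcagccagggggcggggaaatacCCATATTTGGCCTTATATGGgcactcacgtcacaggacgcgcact

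The 7 members listed here as growth and RNA brakes, a group of mixed function, were all positive. Of these, 5 passed as higher averaged (8.42% of all genes). Ier5, a cofactor of heat shock factor signalling (chr1:155096367-155099636, minus strand), stood at 134 and 114 CPM in hippocampal tamoxifen samples and 126 and 178 CPM in hippocampal controls, against 54.9 and 79.7 CPM in cortical tamoxifen samples and 64.2 and 56.2 CPM in cortical controls. All hippocampal samples lay higher, and Ier5 passed between controls (0.96, SE 0.20, edgeR adjusted p = 0.0406) and averaged (0.85, SE 0.14, edgeR adjusted p = 0.0105). Btg2, an antiproliferative factor that promotes mRNA deadenylation, had the largest fold change of the 7, with 126 and 135 CPM in hippocampal tamoxifen samples and 126 and 197 CPM in hippocampal controls, against 42.9 and 27.2 CPM in cortical tamoxifen samples and 54.5 and 52.9 CPM in cortical controls (averaged 1.44, SE 0.27, edgeR adjusted p = 0.0155). Zfp36 (tristetraprolin), which destabilises cytokine mRNAs, stood at 239 and 200 CPM in hippocampal tamoxifen samples and 201 and 324 CPM in hippocampal controls, against 82.8 and 38.4 CPM in cortical tamoxifen samples and 90.1 and 91.4 CPM in cortical controls (averaged 1.38, SE 0.34, edgeR adjusted p = 0.0367). Both genes separated the regions in every sample.

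Ppp1r15a (GADD34), which restores translation after stress, stood at 60.1 and 65.4 CPM in hippocampal tamoxifen samples and 60.9 and 75.1 CPM in hippocampal controls, against 30.0 and 18.4 CPM in cortical tamoxifen samples and 28.5 and 27.9 CPM in cortical controls (averaged 1.02, SE 0.25, edgeR adjusted p = 0.0326). It overlaps Tulp2 on the opposite strand, whose reads equalled 0.696% of its own. Ier2, a nuclear protein of the early growth response, stood at 84.2 and 77.3 CPM in hippocampal tamoxifen samples and 86.7 and 116 CPM in hippocampal controls, against 38.7 and 20.9 CPM in cortical tamoxifen samples and 44.1 and 38.2 CPM in cortical controls (averaged 1.06, SE 0.28, edgeR adjusted p = 0.0437). The regions did not overlap for either gene. Gadd45b, linked to activity-dependent DNA demethylation, was at 7.50 to 11.5 CPM in hippocampal and 4.73 to 6.04 CPM in cortical samples (averaged 0.53, SE 0.17), and Ier3, a survival factor, at 30.4 to 42.0 CPM in hippocampal and 11.0 to 21 CPM in cortical samples (averaged 0.66, SE 0.29), neither passing. Promoter stretches of 3 members of the group are printed with the CRE or CArG box in capitals: Btg2 from -166 (chr1:134079289-134079346, minus strand), Ppp1r15a from -12 (chr7:45526248-45526305, minus strand) and Zfp36 from -58 (chr7:28379252-28379311, minus strand).
Btg2: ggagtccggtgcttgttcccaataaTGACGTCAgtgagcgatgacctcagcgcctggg
Ppp1r15a: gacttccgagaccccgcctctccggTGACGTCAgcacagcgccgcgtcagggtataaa
Zfp36: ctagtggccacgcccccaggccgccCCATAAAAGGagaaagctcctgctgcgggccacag

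The effectors that act at or near the synapse were lower in hippocampus in 4 of 4 cases, and all 4 passed as lower averaged (9.94% of all genes). Nptx2, a secreted pentraxin that clusters AMPA receptors on inhibitory neurons, stood at 3.60 and 2.21 CPM in hippocampal tamoxifen samples and 2.63 and 2.86 CPM in hippocampal controls, against 5.64 and 23.4 CPM in cortical tamoxifen samples and 6.88 and 7.15 CPM in cortical controls (averaged -2.05, SE 0.35, edgeR adjusted p = 0.0119). Vgf, a precursor of neurotrophic peptides, stood at 40.1 and 26.1 CPM in hippocampal tamoxifen samples and 27.5 and 22.9 CPM in hippocampal controls, against 43.5 and 116 CPM in cortical tamoxifen samples and 48.6 and 41.4 CPM in cortical controls (averaged -1.29, SE 0.23, edgeR adjusted p = 0.0132). Every hippocampal sample lay below every cortical one for both. Inhba, the activin subunit that protects neurons after activity, stood at 1.28 and 0.813 CPM in hippocampal tamoxifen samples and 1.11 and 0.998 CPM in hippocampal controls, against 1.09 and 3.17 CPM in cortical tamoxifen samples and 2.51 and 1.86 CPM in cortical controls (averaged -1.27, SE 0.29, edgeR adjusted p = 0.0271). In CPM its regions overlapped at sample A of the tamoxifen groups, and after TMM scaling they did not. Arc (chr15:74669083-74672570, minus strand), the capsid-like protein that removes AMPA receptors from synapses, stood at 83.6 and 54.9 CPM in hippocampal tamoxifen samples and 44.0 and 52.2 CPM in hippocampal controls, against 95.1 and 178 CPM in cortical tamoxifen samples and 40.4 and 70.1 CPM in cortical controls. Its regions overlapped, and the averaged log2 fold change was -0.84 (SE 0.23, edgeR adjusted p = 0.0445). That value passed in only 6 of the 17 other settings.

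Other genes of the pathway differed between regions as well, in lists chosen with earlier results of these data known. The upstream list held 26 genes (a calcium channel, a glutamate receptor subunit, kinases, and CREB, SRF and MEF2 factors with their cofactors). Averaged, 1 passed as higher (8.42% of all genes) and 6 as lower (9.94% of all genes). The median log2 fold change was -0.28 over the list. The calcium-dependent kinases Camkk2 and Camk4 had -1.61 (SE 0.19, edgeR adjusted p = 0.00589) and -1.46 (SE 0.22, edgeR adjusted p = 0.00861), the activity-regulated factor Mef2c -1.73 (SE 0.21, edgeR adjusted p = 0.00624) and the ribosomal S6 kinase Rps6ka2 -0.63 (SE 0.11, edgeR adjusted p = 0.0116). Of 20 genes of the later activity response, 2 passed as higher (8.42% of all genes) and 6 as lower (9.94% of all genes). Their median was -0.42. Among these the neuropeptides Crh, Tac1 and Penk had -2.46 (SE 0.35), -2.90 (SE 0.57) and -3.73 (SE 0.73), and the synaptic scaffold Homer1 had -1.15 (SE 0.16, edgeR adjusted p = 0.00794). Penk, the most uneven of them, stood at 2.99 and 2.66 CPM in hippocampal tamoxifen samples and 2.23 and 2.19 CPM in hippocampal controls, against 8.43 and 69.9 CPM in cortical tamoxifen samples and 35.0 and 8.41 CPM in cortical controls. The 5 striatal neuron markers found in the files summed to 56.3 to 142 CPM in hippocampal and 164 to 322 CPM in cortical samples on the TMM scale, highest in the same sample B of cortical tamoxifen, and their part in the Penk values was not tested. Within treatments, 1 upstream gene (Mef2c) and 0 late genes passed as lower between tamoxifen samples (0.692% of all genes). Between controls 3 upstream (Camkk2, Mef2c and Camk4) and 2 late genes (Crh and Homer1) passed as lower (3.48% of all genes).

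A list of 20 further genes known to respond to tissue dissociation, stress or cytokines moved with the higher members. Of these, 12 passed as higher in hippocampus averaged (8.42% of all genes) and 0 as lower (9.94% of all genes), with a median of 0.78. Between controls 3 passed as higher (Dnajb1, Rhob and Hspa5, against 2.71% of all genes), and between tamoxifen samples 0 did (0.426% of all genes). Averaged, the small GTPase Rhob had 0.85 (SE 0.12, edgeR adjusted p = 0.0077), the chaperone Dnajb1 0.78 (SE 0.13, edgeR adjusted p = 0.0106), the cytokine brake Socs3 1.63 (SE 0.31, edgeR adjusted p = 0.0165) and the cytokine Tnf 2.20 (SE 0.42, edgeR adjusted p = 0.0177). Marker levels also differed between regions. On the TMM scale the 7 microglia markers summed to 1360 to 2150 CPM in hippocampal samples, against 804 to 970 CPM in cortical samples. The 4 oligodendrocyte precursor markers summed to 213 to 293 CPM against 122 to 161 CPM, and the 5 mural cell markers to 358 to 422 CPM against 185 to 315 CPM. Sums of astrocyte, oligodendrocyte, endothelial, choroid plexus and meningeal fibroblast markers overlapped between the regions. Single markers of these lists could still separate them. On the gene-row total the astrocyte marker Gfap was at 660 to 750 CPM in hippocampal and 188 to 239 CPM in cortical samples. The fibroblast marker Dcn was at 7.14 to 8.89 against 1.54 to 2.32 CPM. The largest genes of these 2 lists, Slc1a2 (4760 to 6400 against 4220 to 5720 CPM) and Igf2 (20.6 to 520 against 13.6 to 190 CPM), overlapped. The 5 general neuron markers summed to 1590 to 2020 CPM in hippocampal samples, against 2190 to 3430 CPM in cortical samples, and the 7 inhibitory neuron markers to 61.9 to 102 CPM against 128 to 242 CPM. The part of these lists and cell types in the members' regional differences was not tested.

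Tamoxifen against control was the comparison the series was set up for, and 0 of 33 members passed in either region. In hippocampus 0.0% of 18074 genes passed the edgeR test and 653 genes, 2 of them members, had an unadjusted p under 0.05. In cortex 0.0% of genes passed, and 899 genes, 1 of them a member, had an unadjusted p under 0.05. DESeq2 and limma voom with correlated libraries also called 0 members in each region, whereas edgeR on 16 separate libraries called 1 in each, Nr4a2 in hippocampus (1.9% of all genes passed there) and Arc in cortex (3.36% of all genes), a share of members near that of all genes. Averaged over both regions, 0 members passed, against 0.0111% of all genes, with 3 members at an unadjusted p under 0.05. The median log2 fold change of the members was -0.13 in hippocampus (all genes -0.01), -0.21 in cortex (all genes 0.04) and -0.21 averaged (all genes 0.01). These medians depended on single samples: in hippocampus the median was 0.19 without control B, with 27 members positive and 6 negative, and -0.42 without control A. In cortex it was -0.38 without tamoxifen A and -0.04 without tamoxifen B, and averaged it was 0 without hippocampal control B. Over the 17 other settings 22 members changed sign at least once in hippocampus and 21 in cortex.

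The members of smallest p after tamoxifen were Nr4a2 and Arc, whose levels are given above. In hippocampus both Nr4a2 values of the tamoxifen samples lay above those of the controls, by 0.52 on the log2 scale (SE 0.13, edgeR adjusted p = 1), and in cortex likewise, with 0.30 (SE 0.13, edgeR adjusted p = 0.83). The Nr4a2 value averaged 0.41 (SE 0.09, unadjusted p = 0.00298, edgeR adjusted p = 0.961), and over the settings tried its sign stayed positive, from 0.35 to 0.50. Arc in tamoxifen samples also lay above the controls of its region, by 0.55 in hippocampus (SE 0.32, edgeR adjusted p = 1) and 1.06 in cortex (SE 0.32, edgeR adjusted p = 0.83), and averaged 0.80 (SE 0.23, unadjusted p = 0.00942, edgeR adjusted p = 0.961). Nr4a1 showed the same separation in both regions, with 0.36 in hippocampus (SE 0.15) and 0.19 in cortex (SE 0.15). None of these passed.

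Separation of 2 against 2 samples was common among all genes. In hippocampus 6 members lay higher in both tamoxifen samples on the TMM scale (Arc, Egr4, Fosl2, Nr4a1, Nr4a2 and Vgf), against 21.1% of all genes, and 3 lay lower (Dusp1, Egr1 and Ier2), against 18.9%. In cortex 3 lay higher (Arc, Nr4a1 and Nr4a2), against 16.2% of all genes, and 7 lay lower (Atf3, Btg2, Dusp1, Jun, Klf2, Klf4 and Zfp36), against 15.0%. The share of members separated in cortex was 9.09% upwards and 21.2% downwards. In hippocampus it was 18.2% upwards and 9.09% downwards.

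**Figure D3:**
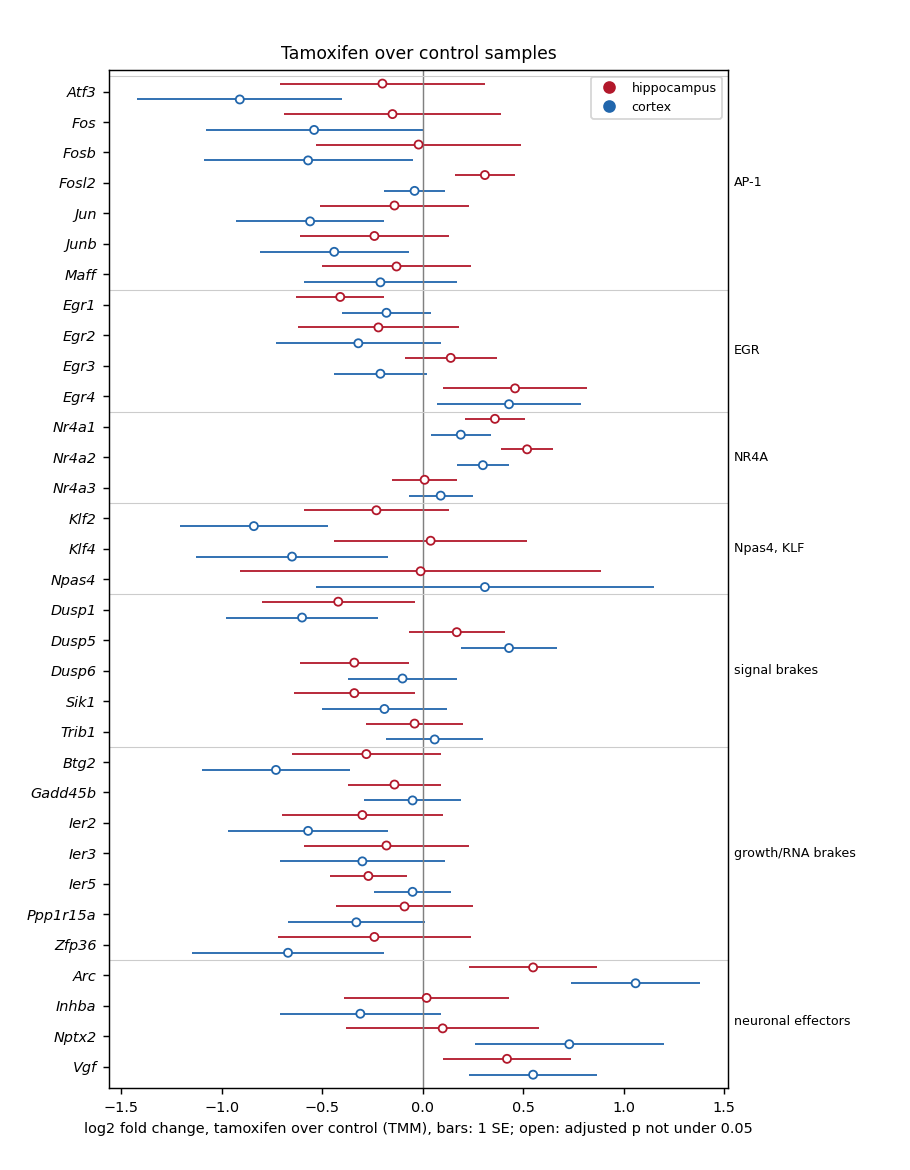
Log2 fold change (x axis, TMM scale) of each of the 33 members (y axis, grouped by role) in tamoxifen over control samples, in hippocampus and in cortex, with bars of 1 SE. No point passed the edgeR test, and Arc in cortex, at 1.06, lies farthest from 0.

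Other members of small p did not pass either. In hippocampus the smallest p after Nr4a2 and Nr4a1 belonged to Fosl2 (0.31, SE 0.15), Egr1 (-0.41, SE 0.22), Arc and Ier5 (-0.27, SE 0.19). In cortex, after Arc, they belonged to Klf2 (-0.84, SE 0.37), Nr4a2, Btg2 (-0.73, SE 0.37), Dusp5 (0.43, SE 0.24) and Atf3 (-0.91, SE 0.51). Klf2 stood at 52.2 and 33.8 CPM in cortical tamoxifen samples, against 67.2 and 74.4 CPM in cortical controls, and at 103 and 97.0 CPM in hippocampal tamoxifen samples, against 92.9 and 144 CPM in hippocampal controls. Klf4 stood at 40.3 and 18.1 CPM in cortical tamoxifen samples, against 43.8 and 42.8 CPM in cortical controls, and at 79.9 and 61.5 CPM in hippocampal tamoxifen samples, against 57.0 and 82.6 CPM in hippocampal controls. For both, the cortical groups were separate and the hippocampal groups overlapped. By role, the 7 AP-1 members ranged from -0.24 to 0.31 in hippocampus and from -0.91 to -0.04 in cortex, the 7 growth and RNA brakes from -0.30 to -0.09 and from -0.73 to -0.05, and the 4 effectors from 0.02 to 0.55 and from -0.31 to 1.06. For the difference of the tamoxifen effects, hippocampal minus cortical, 0 members and 0.0% of all genes passed; 981 genes and 0 members had an unadjusted p under 0.05, and DESeq2, limma voom and edgeR on separate libraries called 0 members. The members of smallest p for that difference were Fosl2 (0.35, SE 0.21), Klf2 (0.62, SE 0.51), Nr4a2 (0.22, SE 0.19), Arc (-0.51, SE 0.45), Egr3 (0.35, SE 0.33) and Klf4 (0.69, SE 0.68). The pathway lists had 0 calls after tamoxifen in either region or averaged.

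The cortical result rested on how alike its 2 tamoxifen samples were. Sample B over sample A of that group gave an absolute log2 difference of 0.94 at the median member, against 0.29 at the median of all genes, and 16 of 33 members differed by more than 1, against 8.26% of genes. In sample B 20 members were lower, among them all 7 AP-1 genes, down to -1.87 for Fos, and 13 were higher, among them all 4 effectors and Npas4, which reached 1.58. In the other groups the median absolute difference was 0.18 in hippocampal tamoxifen samples (all genes 0.14), 0.49 in hippocampal controls (all genes 0.16) and 0.16 in cortical controls (all genes 0.11). Hippocampal control sample B exceeded sample A for 28 of 33 members, most for Fosb at 1.00. With 1 sample on each side these differences have no test.

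**Figure D4:**
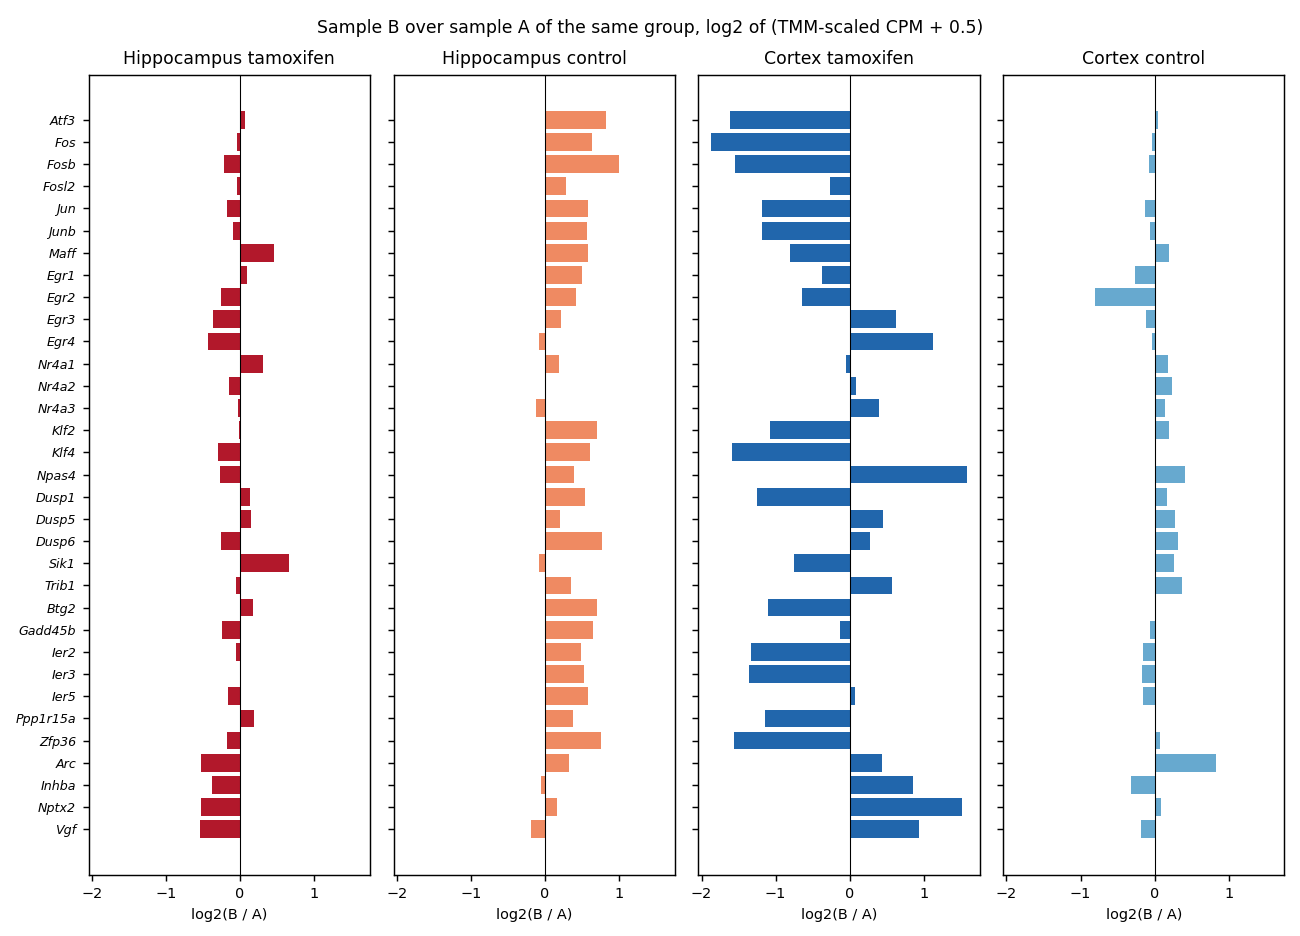
Log2 difference (x axis, TMM scale) between sample B and sample A of the same group for each of the 33 members (y axis, in the order of their roles), in 4 panels, one a group. Bars of the cortical tamoxifen group reach from -1.87 for Fos to 1.58 for Npas4, and those of the hippocampal control group point mostly to the right.

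Ratios of counts within a sample do not depend on scaling. The ratio of Arc to Fos was 0.255 and 0.180 in hippocampal tamoxifen samples and 0.152 and 0.123 in hippocampal controls, against 0.705 and 3.52 in cortical tamoxifen samples and 0.306 and 0.562 in cortical controls. The regions did not overlap in it, and in each region both tamoxifen samples lay above both controls. By contrast, Fosb to Fos stayed within 0.327 to 0.451 and Junb to Jun within 0.634 to 0.730 over all 8 samples. These ratios were chosen after the values were seen and were not tested.

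Marker levels moved with the split inside the cortical tamoxifen group. On the TMM scale the 5 general neuron markers summed to 2190 CPM (sample A) and 3430 CPM (sample B), the 6 oligodendrocyte markers to 81500 and 21100 CPM and the 7 endothelial markers to 729 and 347 CPM. The oligodendrocyte sum was carried by Mbp (46500 and 16400 CPM of the gene-row total) and Mobp (18600 and 6010 CPM), whereas Mag (57.3 and 100 CPM) and Mog (19.5 and 30.9 CPM) of the same list were higher in sample B and Cnp was at 269 and 260 CPM. Cortical controls had 2340 and 2620 CPM of neuron, 61500 and 63000 CPM of oligodendrocyte and 726 and 684 CPM of endothelial markers. On the same scale the 5 choroid plexus markers summed to 6060 and 4.73 CPM in cortical tamoxifen samples and 1080 and 7.07 CPM in cortical controls. In hippocampus they summed to 41.9 and 7610 CPM in tamoxifen samples and 14900 and 7370 CPM in controls. Leaving out sample A of cortical tamoxifen, which leaves 1 sample assumed to vary like the other groups, 15 members passed in cortex, 3 higher (6.14% of all genes) and 12 lower (4.53% of all genes), among them Fos at -1.77 (SE 0.26, edgeR adjusted p = 0.016), Ier2 at -1.40 (SE 0.21, edgeR adjusted p = 0.016), Nptx2 at 1.32 (SE 0.24, edgeR adjusted p = 0.0239) and Vgf at 0.94 (SE 0.22, edgeR adjusted p = 0.0448). Leaving out sample B instead, 0 passed and Fos had 0.12. Averaged over regions without that sample A, 9 members passed, 2 higher (Egr4 and Nr4a2, against 3.48% of all genes) and 7 lower (against 1.42% of all genes). The part of cell makeup in these values was not tested.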

How the data were processed

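Total RNA of 16 libraries was sequenced. The submitters' processing notes name STAR, HTSeq and build mm10; tool versions, the annotation release and any strand setting were not stated. The deposited counts are whole reads per gene, not normalized, for 39179 genes. The deposited RPKM values, per the file headers, equal those counts divided by exon length and the library's total, unassigned reads included; recomputing matched 100% of them, and RPKM entered no test. Unassigned reads, 35.53 to 42.5% of the totals, stayed out of library sizes. Gene counts were 33236178 to 57195203 per library.

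The 33 members, the gene lists and the summing of libraries were chosen with earlier results of these data known. Neighbouring libraries (8 pairs) differed by 2.58 to 2.79 times the Poisson variance at 20 to 200 counts, and the 16 other pairs by 3.59 to 16.8 times. They therefore differed by more than sampling noise but less than other libraries, and were counted as 1 sample. Counts of the 8 samples were filtered with filterByExpr, scaled with TMM and fitted over 4 group means with the robust quasi-likelihood test of edgeR 4.0.16 (R 4.3.3), with Benjamini-Hochberg adjustment over all genes of a contrast and a threshold of 0.05. SE is the log2 fold change over the square root of F. The fit was tested on simulated data. Contrasts averaged over regions or treatments were added after the values were seen. Values per sample are given for members that passed in any contrast and for those of smallest p; other members are given as ranges. Of each pathway list, up to 4 genes of smallest p are named. Promoter stretches are those of members of smallest p with a CRE or CArG box; the Nr4a3 window was added after its values were seen. No promoter window was used for Arc, Egr1, Egr3, Ier2, Nptx2, Sik1, Trib1 and Vgf. Alternatives were RLE, upper quartile and no scaling, no mitochondrial genes, no count filter, a replicate block, 16 separate libraries, DESeq2 1.42.0, limma 3.58.1 voom with correlated libraries, and leaving out each sample. Within-group differences used log2 of TMM-scaled CPM with 0.5 added. The number of samples limits precision.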

Additional observations from a re-analysis of the deposited data

How the results depend on the processing

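Averaged hippocampal over cortical calls (23 members) were 22 to 30 under RLE, upper quartile or no scaling, without mitochondrial genes, on 16 separate libraries, with DESeq2 and with limma voom, and 17 without a count filter. They were 14 with the replicate block and 2 to 27 when 1 sample was left out: 2 without cortical control B, 4 without cortical control A, 5 without hippocampal control B, 7 and 10 without hippocampal tamoxifen B and A, 9 without hippocampal control A, 22 without cortical tamoxifen B and 27 without cortical tamoxifen A. Nr4a3 and Egr1 passed in all of these fits. Between control samples, the 4 calls were 14 with no scaling factor, 0 with the replicate block, 25 on separate libraries, 18 with DESeq2, 19 with limma voom and 0 to 21 over leave-outs (0 without either control sample of either region, 21 without either cortical tamoxifen sample). Between tamoxifen samples, the 1 call was 0 with no scaling factor, 3 without a count filter, 0 with the replicate block, 28 on separate libraries, 22 with DESeq2, 24 with limma voom and 0 to 23 over leave-outs, 23 without cortical tamoxifen A. Over these settings the share of all genes called ran from 1.95 to 50.6% averaged, from 0.0 to 41.7% between controls and from 0.0 to 32.9% between tamoxifen samples. P-values on separate libraries are too small if neighbouring libraries repeat 1 sample.

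After tamoxifen, 0 calls became 1 on separate libraries in each region and 2 averaged (Arc and Nr4a2). On separate libraries 1.9% of all genes passed in hippocampus, 3.36% in cortex and 0.794% averaged. Leave-outs gave 0 to 15 in cortex and 0 to 9 averaged, the highest without cortical tamoxifen A, and 0 in hippocampus. The shares of all genes called without cortical tamoxifen A are given by direction with the marker levels above. The replicate block gave 0 calls in each region and averaged. Correlations of same-letter deviations between groups ran from -0.405 to 0.283. With 2 samples per group, they cannot show whether samples of different groups were paired. The difference for Nr4a2, hippocampal minus cortical, was -0.03 with no scaling factor, and Ier5 in hippocampus was 0.05 without hippocampal control B (-0.53 to 0.05 over leave-outs). With 2 samples per group, changes of moderate size may be missed, and Npas4 rests on few counts.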
